A study of Arabidopsis thaliana with 18 samples.

Results

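In wild-type (WT) Arabidopsis thaliana seedlings, 999 nuclear peaks of the histone mark H3K27me3 shared at least 200 bp with peaks of the mark H3K4me3. They made up 13.8% of the 7240 H3K27me3 peaks on chromosomes 1 to 5, and are called shared peaks here. They were chosen by the overlap of the authors' peak lists, so their lengths, scores and shared bases are given as a description with no test. The transcript levels set beside them come from pold2 seedlings and from WT seedlings. The pold2 mutant carries a defect in the second subunit of DNA polymerase delta, a replicative polymerase; the labels name no allele. All groups were untreated 10-day-old whole seedlings of ecotype C24, grown at 22°C with 23 h of light a day on medium with 20 g/L sucrose. RNA values are 1 pooled FPKM per genotype, a level scaled to transcript length and library size, from 3 pold2 and 3 WT libraries, so they carry no SD or n. For each mark 1 WT library gave the peak list, without a replicate. The antibody field of the WT H3K27me3 library omits the methylation state, while its title gives it. The pold2 chromatin libraries were not analysed here.

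H3K27me3 is written by Polycomb repressive complex 2 and marks genes held silent in a given tissue, many of them regulators of development. H3K4me3 is written by Trithorax-type methyltransferases and marks the start of transcribed genes. A stretch that carries both is often called bivalent, a state first described in embryonic stem cells of mammals and also reported in plants. Whether both marks sat on the same chromosome copy or in different cells of the seedling was not tested, since the libraries are from whole seedlings. The marks can be checked on known genes. Of 10 listed constitutive genes, 10 lay under an H3K4me3 peak and 1 under an H3K27me3 peak. Of 12 listed floral organ identity genes, 11 lay under an H3K27me3 peak and 4 under an H3K4me3 peak.

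The lengths of shared peaks and of other H3K27me3 peaks overlapped widely. The median length of shared peaks was 1760 bp, with a range of 554 to 13261 bp, against 1884 bp for the 6241 other peaks. Of the 790 peaks over 4000 bp, 14.8% were shared peaks, and of the 1002 peaks up to 1000 bp, 14.9% were. The authors' score, used here only to rank peaks within a list, had a median of 260 in shared peaks and 219 in the other peaks. Shared peaks were 11.2% of the lowest quartile of H3K27me3 scores and 14.9% of the highest quartile. They lay on every chromosome at like shares, 13.3% of the H3K27me3 peaks of chromosome 4 at the lowest and 14.1% of those of chromosome 2 at the highest. The median distance between the centres of neighbouring shared peaks was 67041 bp.

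The third mark, H3K9me2, which marks silent transposons and pericentromeric chromatin, was not part of the choice. A base of an H3K9me2 peak lay in 14 of the 999 shared peaks (1.40%), against 528 of the 6241 other H3K27me3 peaks (8.46%). By the layouts described below, it lay in 9 of 538 edge peaks and 5 of 260 peaks around an H3K4me3 peak. It lay in 0 of 170 inside an H3K4me3 peak and 0 of 31 with several. The 170 had the lowest median length, 999 bp, and the difference between these small counts was not tested. In 203 windows of 100000 bp with at least 20% of their bases under H3K9me2, 39 of 729 H3K27me3 peaks were shared peaks (5.35%), and in the other windows 960 of 6511 were (14.7%). With 1 library per mark, the part of library depth in these shares was not tested.

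The bases held by both marks came to 1054886 bp, which is 48.4% of the length of the shared peaks and 4.63% of all H3K4me3 peak length. The shared bases of a peak had a median of 1019 bp and reached 4058 bp. By their layout the shared peaks fell into 4 kinds. In 538 the H3K4me3 peak reached or crossed one edge of the H3K27me3 peak. In 260 the H3K4me3 peak lay wholly within the H3K27me3 peak, and in 170 the H3K27me3 peak lay wholly within the H3K4me3 peak. The remaining 31 shared bases with several H3K4me3 peaks.

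These kinds differed in length and score. The 170 peaks inside an H3K4me3 peak had a median length of 999 bp and a median score of 97.7. The 260 peaks around an H3K4me3 peak had medians of 2097 bp and 477, and the 538 edge peaks had medians of 1890.5 bp and 260. The kind covered end to end by H3K4me3 thus had the lowest medians of length and score, though its scores reached 1337 and the shortest shared peak, of 554 bp, was an edge peak. The H3K4me3 partners mostly scored low within their own list. The 1019 H3K4me3 peaks under shared peaks had a median score of 508, against 1589 for the 14412 H3K4me3 peaks with no H3K27me3 peak. In 794 of the 999 shared peaks (79.5%), the best H3K4me3 partner scored under the median of its list. When both lists were held to their better-scoring 50%, 102 peaks met the rule.

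**Figure D1:**
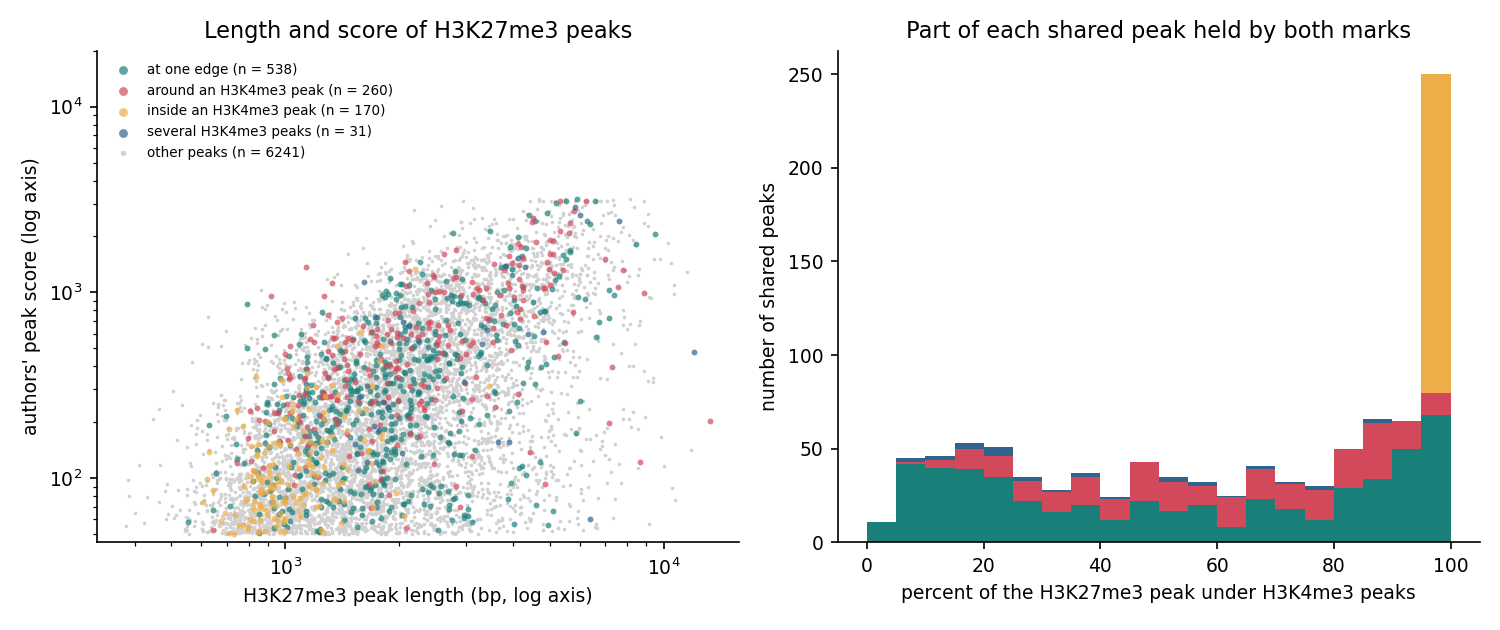
Left, length (bp, log axis) against the authors' score (log axis) for each nuclear H3K27me3 peak, with shared peaks coloured by layout and the 6241 other peaks in grey; right, the number of shared peaks by the percent of their length under H3K4me3 peaks, in the same colours. The 170 peaks inside an H3K4me3 peak sit mostly at short lengths and low scores, and shared peaks otherwise spread over the whole range of the grey points.

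Just inside the threshold of the rule, peaks on chromosome 3 (5790591 to 5792537, TAIR10), chromosome 3 (338714 to 343828) and chromosome 5 (1345736 to 1354200) shared 201, 203 and 203 bp. Just outside, peaks on chromosome 1 (20079106 to 20081230), chromosome 1 (23966550 to 23968631) and chromosome 3 (8830506 to 8835307) shared 199 bp each. In all, 302 peaks shared between 1 and 199 bp. The inner peak on chromosome 5 covered AT5G04680 and AT5G04690, with its shared stretch on neither of them.

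The largest stretch, 4058 bp, lay in a peak on chromosome 3 (5025410 to 5029746) over PPC3 (AT3G14940), a phosphoenolpyruvate carboxylase, at 101 FPKM in pold2 and 89.2 FPKM in WT. A peak of 3449 bp on chromosome 1 (14158425 to 14161873), all of it shared, covered NIA2 (AT1G37130), a nitrate reductase, at 491 FPKM in pold2 and 406 FPKM in WT. WAK1 (AT1G21250), a wall-associated receptor kinase, lay under a peak with 3398 shared bp and had 31.1 FPKM in pold2 and 15.6 FPKM in WT. It rose by 1.99-fold (q = 0.00103 in the authors' deposited table). That q is the smallest given there. It is carried by 965 listed genes, 102 of them genes of shared peaks, so it does not rank them. The next 2 peaks were over RLP23 (AT2G32680), a receptor-like protein gene, with 2725 shared bp, and over RD22 (AT5G25610), a gene known for its dehydration response, with 2554 shared bp. RLP23 had 0.848 FPKM in pold2 and 0.460 FPKM in WT, and RD22 had 255 FPKM in pold2 and 231 FPKM in WT. So stretches of like size lay over genes whose FPKM differed by orders of magnitude.

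The peaks with the highest scores held both marks over a smaller part of their length. The highest, at 3190 on chromosome 1 (20688348 to 20694257), shared 1540 of 5910 bp and covered EDA11 (AT1G55420), which had 1.46 FPKM in pold2 and 0.956 FPKM in WT. The authors' deposited table calls it higher in pold2 (q = 0.0245). The next 4 peaks tied at 3100, the commonest score of that size, which 20 H3K27me3 peaks carry, so ranks at the top of the list are uncertain. One of them touched NACA2 (AT3G49470) by 31 bp at its edge; NACA2 had 99.5 FPKM in pold2 and 131 FPKM in WT.

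Transcript levels were then read for genes whose locus a shared peak touched by at least 1 bp. The table lists 19858 genes, each reaching 0.501 FPKM or more in pold2 or in WT, and genes silent in both are outside it. Shared peaks touched 881 listed genes (4.44%), 862 of them protein-coding. Of the 999 shared peaks, 744 touched 1 listed gene, 65 touched 2, 5 touched 3 and 185 touched none (18.5%). Among the other H3K27me3 peaks 4011 of 6241 touched none (64.3%). Of the 881 genes, 653 had at least 50% of their locus under shared peaks, and 829 had the stretch of both marks on the locus. Genes under the same peak, and the 66 genes that share a merged locus with another gene, are not independent of each other.

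The median level of genes of shared peaks stood between that of genes of other H3K27me3 peaks and that of genes with H3K4me3 alone. It was 7.43 FPKM in pold2 and 7.10 FPKM in WT. Genes touched only by other H3K27me3 peaks (2152) had medians of 3.39 FPKM in pold2 and 3.09 FPKM in WT. Of these 2152 genes, 477 also had an H3K4me3 peak on the locus, and their medians of 7.23 FPKM in pold2 and 6.75 FPKM in WT were close to those of genes of shared peaks. The 1675 without one had 2.76 FPKM in pold2 and 2.51 FPKM in WT. Genes under H3K4me3 with no H3K27me3 peak (15331) had medians of 15.2 FPKM in pold2 and 15.4 FPKM in WT, and the median of all listed genes was 12.1 FPKM in both. Under 1 FPKM stood 64 of the 881 genes in pold2 (7.26%) and 87 in WT (9.88%). Over all listed genes it was 4.68% in pold2 and 5.85% in WT. Over 100 FPKM stood 66 of them in pold2 (7.49%), against 7.29% of all listed genes. In whole seedlings a lower level from fewer cells and one from less RNA per cell cannot be told apart.

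**Figure D2:**
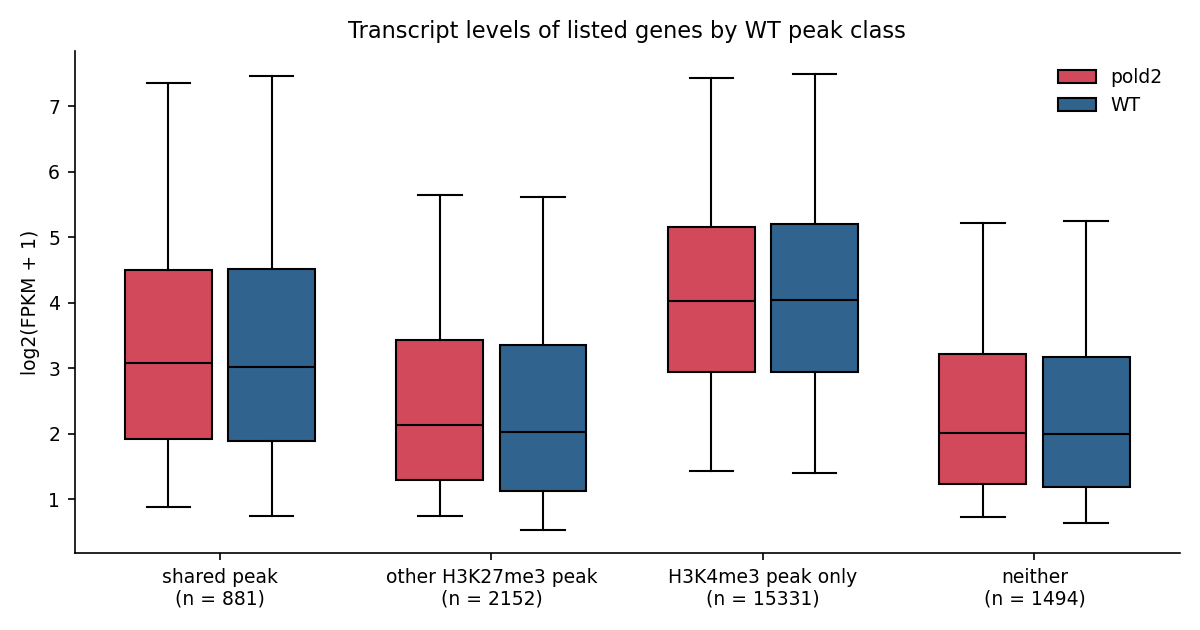
Transcript level as log2(FPKM + 1) of listed genes in pold2 (left box of each pair) and WT (right box), by the WT peak that touches the locus. Boxes span the quartiles with the median as a line, whiskers the 5th to 95th percentile of genes; the 881 genes of shared peaks have medians between those of the 2152 genes of other H3K27me3 peaks and the 15331 with H3K4me3 only.

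The level differed with the layout of the marks. The 165 genes under peaks inside an H3K4me3 peak had medians of 13.8 FPKM in pold2 and 13.5 FPKM in WT. The 459 genes at edge peaks had medians of 7.43 FPKM in pold2 and 6.99 FPKM in WT, and the 233 genes at peaks around an H3K4me3 peak had 5.21 FPKM in pold2 and 5.73 FPKM in WT. Where under 25% of the peak was shared, the 154 genes had medians of 4.01 FPKM in pold2 and 3.92 FPKM in WT. Where at least 75% was shared, the 434 genes had 12.7 FPKM in both. In 27 peaks one listed gene carried the stretch of both marks and another lay under H3K27me3 beside it. The gene with the stretch was the higher of the pair in 16 of 27 peaks in pold2 and in 18 of 27 in WT, taking the gene with the higher pold2 FPKM where a side had several. An example is the peak on chromosome 4 (12900038 to 12901551), where the stretch of 307 bp reached 27 bp into PMSR4 (AT4G25130), with 225 FPKM in pold2 and 229 FPKM in WT. OLEO1 (AT4G25140), an oil body protein gene, lay under the rest of that peak with 8.09 FPKM in pold2 and 3.00 FPKM in WT. Its locus is merged with that of another gene and also held 921 bp of H3K4me3 peak away from the stretch. Other pairs differed as widely the other way. AT3G02010, with a stretch, had 1.04 FPKM in pold2 and 0.910 FPKM in WT. AK3, beside it under the same H3K27me3 peak, had 87.9 FPKM in pold2 and 78.4 FPKM in WT.

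The comparison of pold2 with WT asked how transcripts of these genes changed in the mutant. By the authors' deposited table at q under 0.05, 134 of the 881 genes were called higher (15.2%), 79 lower (8.97%) and 668 neither. In the authors' deposited table as a whole, 5.97% of listed genes were called higher, 6.47% lower and 12.4% in either direction. The median log2 ratio of the 881 genes was 0.06, against -0.01 over all listed genes. With a 2-fold minimum as well, 27 were higher and 8 lower, where 1.2% and 0.388% of all listed genes met those rules. Genes of the other H3K27me3 peaks were called higher in 370 of 2152 cases (17.2%) and lower in 140 (6.51%), with a median log2 ratio of 0.12. Genes with H3K4me3 only were called higher in 529 of 15331 cases (3.45%) and lower in 963 (6.28%). Genes with neither mark, 1494 in all, were called higher in 10.2% and lower in 6.89%. At q under 0.01 the authors' deposited table gives 88 genes of shared peaks as higher and 59 as lower, where 3.74% and 3.86% of all listed genes met those rules. The pooled values hide the spread between libraries, and the labels do not say whether these came from separate cultures, so q may measure technical spread only.

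Level moves with the calls, so the shares were also read within ranges of the mean FPKM of both genotypes. Under 2 FPKM, 32 of 177 genes of shared peaks were called higher (18.1%), against 10.3% of all listed genes in that range. From 2 to 10 FPKM it was 47 of 324 (14.5%, against 7.42%), from 10 to 50 FPKM 40 of 264 (15.2%, against 4.37%), and at 50 FPKM or more 15 of 116 (12.9%, against 3.50%). Lower calls were 3 of 177 under 2 FPKM (1.69%, against 1.93% of all listed genes) and 25 of 324 from 2 to 10 FPKM (7.72%, against 4.31%). They were 34 of 264 from 10 to 50 FPKM (12.9%, against 6.17%) and 17 of 116 at 50 FPKM or more (14.7%, against 15.6%). Genes of shared peaks thus had more higher calls than all listed genes in all 4 ranges, and more lower calls in the middle 2 ranges. Neither was particular to them. Higher calls in genes of other H3K27me3 peaks were 17.9% under 2 FPKM and 14.0% at 50 FPKM or more. From 2 to 10 FPKM, 7.80% of those genes and 7.80% of genes with neither mark were called lower. From 10 to 50 FPKM it was 8.48% and 11.7%. Most listed genes had H3K4me3 only, at 2.93% and 5.58% lower in these 2 ranges.

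**Figure D3:**
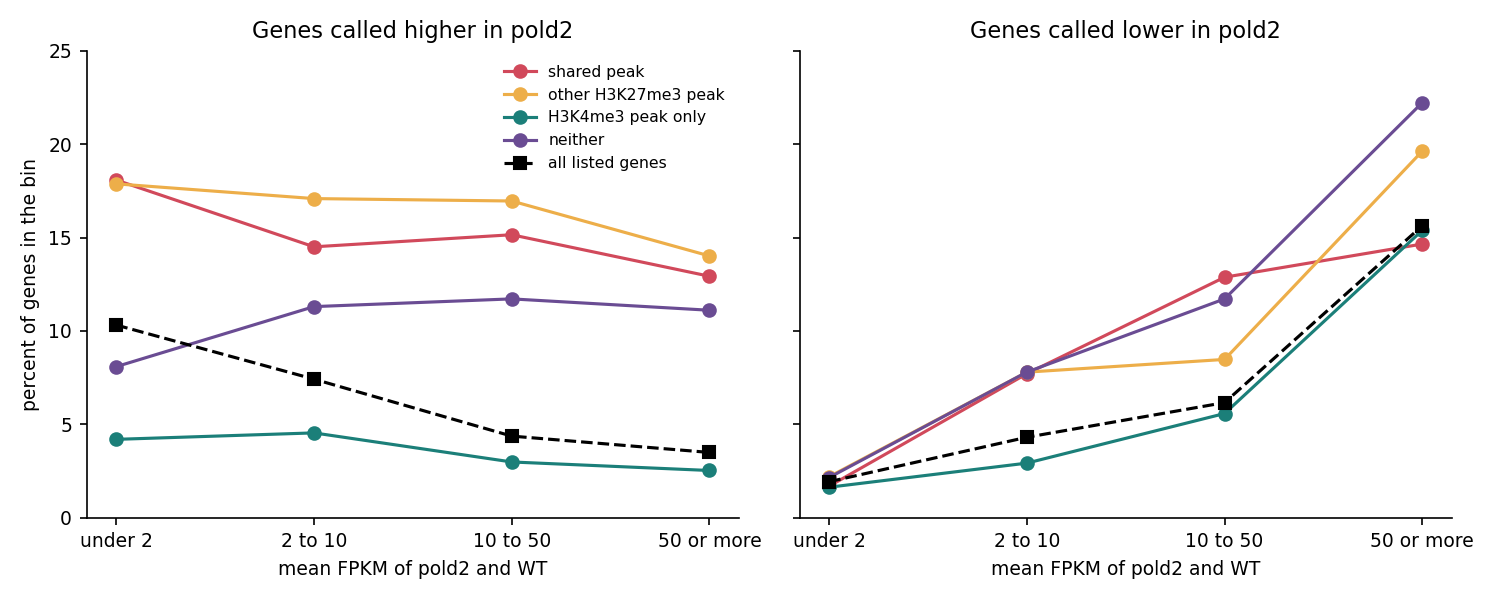
Percent of listed genes called higher (left) and lower (right) in pold2 at q under 0.05, by the mean FPKM of both genotypes, for each WT peak class and for all listed genes (dashed). Genes of shared peaks run from 18.1% to 12.9% in the left panel, close to the genes of other H3K27me3 peaks, and from 1.69% to 14.7% in the right panel.

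Shares of calls were also read by the score of the H3K27me3 peak and by layout. Over all listed genes, 5.97% were called higher and 6.47% lower. Among the 219 genes at the highest quartile of peak scores, 40 were called higher (18.3%) and 11 lower (5.02%). Among the 221 genes at the lowest quartile, 30 were called higher (13.6%) and 26 lower (11.8%). By layout, edge peaks had 81 of 459 genes higher (17.6%) and 39 lower (8.50%). Peaks inside an H3K4me3 peak had 18 of 165 higher (10.9%) and 19 lower (11.5%). These splits overlap each other, and the differences between them were not tested. They also differ in level, which moves with the calls. Medians were 6.41 FPKM in pold2 and 5.42 FPKM in WT at the highest quartile of scores. At the lowest quartile they were 9.20 FPKM in pold2 and 9.06 FPKM in WT. Edge peaks and peaks inside an H3K4me3 peak had WT medians of 6.99 and 13.5 FPKM. The part of level in these shares was not tested.

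**Figure D4:**
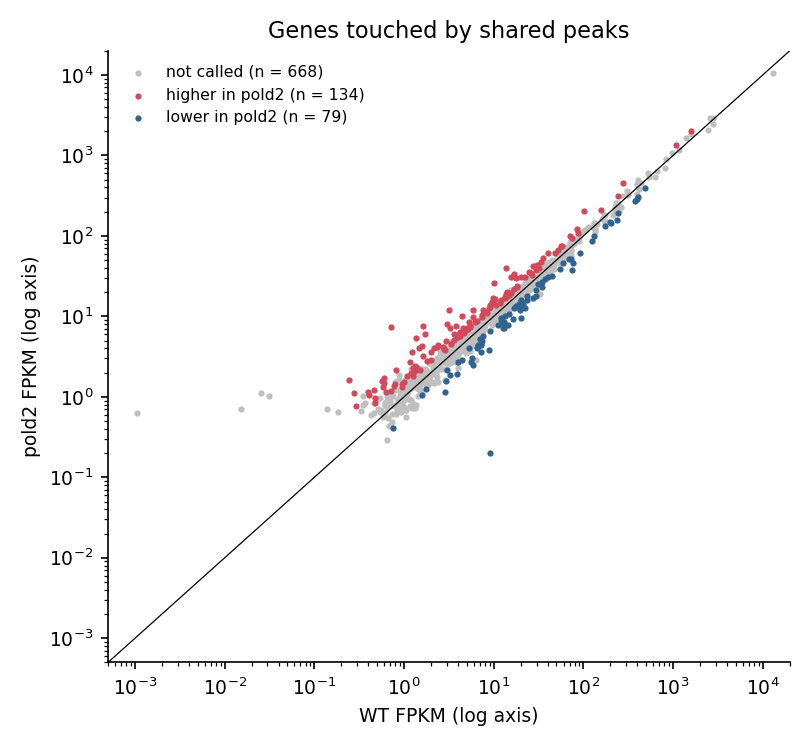
FPKM in pold2 against FPKM in WT (both log axes) for the 881 genes touched by shared peaks, coloured by the authors' call at q under 0.05; the line marks equal levels. The 134 genes called higher lie above the line, 15 of them at a mean of 50 FPKM or more, and the 79 called lower lie close below it except AT2G09795 at 0.201 FPKM in pold2.

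Among genes with both marks on the locus, the 8 largest called rises were in genes of 0.594 to 13.6 FPKM in WT. AT4G05475, on chromosome 4 (2765962 to 2767957), had 7.37 FPKM in pold2 and 0.708 FPKM in WT, a 10.4-fold rise in the authors' deposited table (q = 0.00103). A WT level under 1 FPKM makes this fold uncertain. The gene lay whole under a peak of 5319 bp that reaches the tied score of 3100 and holds an H3K4me3 peak of score 66.6. Its neighbour AT4G05470 under the same peak had 1.11 FPKM in pold2 and 0.0253 FPKM in WT and was not called (q = 0.398). HDA18 (AT5G61070), a histone deacetylase gene, had 7.68 FPKM in pold2 and 1.62 FPKM in WT, a 4.73-fold rise in the authors' deposited table (q = 0.00103). The H3K27me3 peak there, of 7194 bp, also reached 17 bp into HDA05 (AT5G61060), which had 12.2 FPKM in pold2 and 11.9 FPKM in WT. AT1G03710 and AT2G28490 rose by 4.03-fold and 3.78-fold in the authors' deposited table.

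SOC1 (AGL20, AT2G45660), a MADS-box gene that promotes flowering, was the fifth of these rises. It had 6.12 FPKM in pold2 and 1.70 FPKM in WT, 3.60-fold higher in the authors' deposited table (q = 0.00103). Its locus on chromosome 2 (18807538 to 18811047) lay whole under a peak of 3797 bp (score 1386), of which 1542 bp at one end were also under H3K4me3. AT1G80130 had 39.8 FPKM in pold2 and 13.6 FPKM in WT, with a rise of 2.92-fold by the authors' deposited table. AT2G36780 and the pectin methylesterase gene PME61 (AT3G59010) rose by 2.89-fold and 2.86-fold in the authors' deposited table. PME61 was at 0.594 FPKM in WT, which makes its fold uncertain.

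The falls among genes with both marks on the locus were smaller, with 1 exception. AT2G09795, a long noncoding RNA gene, had 0.201 FPKM in pold2 and 9.15 FPKM in WT (45.5-fold lower, q = 0.0385 in the authors' deposited table), a weak q for so large a ratio of pooled values. ROXY2 (AT5G14070), a glutaredoxin gene that acts in anther development, had 1.16 FPKM in pold2 and 2.90 FPKM in WT, and fell by 2.50-fold in the authors' deposited table (q = 0.00471). Its H3K27me3 peak of 1130 bp held an H3K4me3 peak of score 52.7, near the lowest of that list. MAF4 (AT5G65070), a relative of the flowering repressor FLC, had 2.46 FPKM in pold2 and 5.81 FPKM in WT, a 2.36-fold fall in the authors' deposited table. Reads may be split wrongly among the related MAF genes, which was not tested. KDR (AT1G26945) and HEC1 (AT5G67060), both for helix-loop-helix proteins, fell by 2.09-fold and 2.07-fold in the authors' deposited table. AT5G54585 fell by 2.29-fold and the pseudogene PSEUDOSRKA (AT4G21370) by 2.02-fold in the authors' deposited table. AOC2 (AT3G25770), an allene oxide cyclase of jasmonate synthesis, had 37.3 FPKM in pold2 and 74.8 FPKM in WT, 2.01-fold lower in the authors' deposited table.

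**Figure D5:**
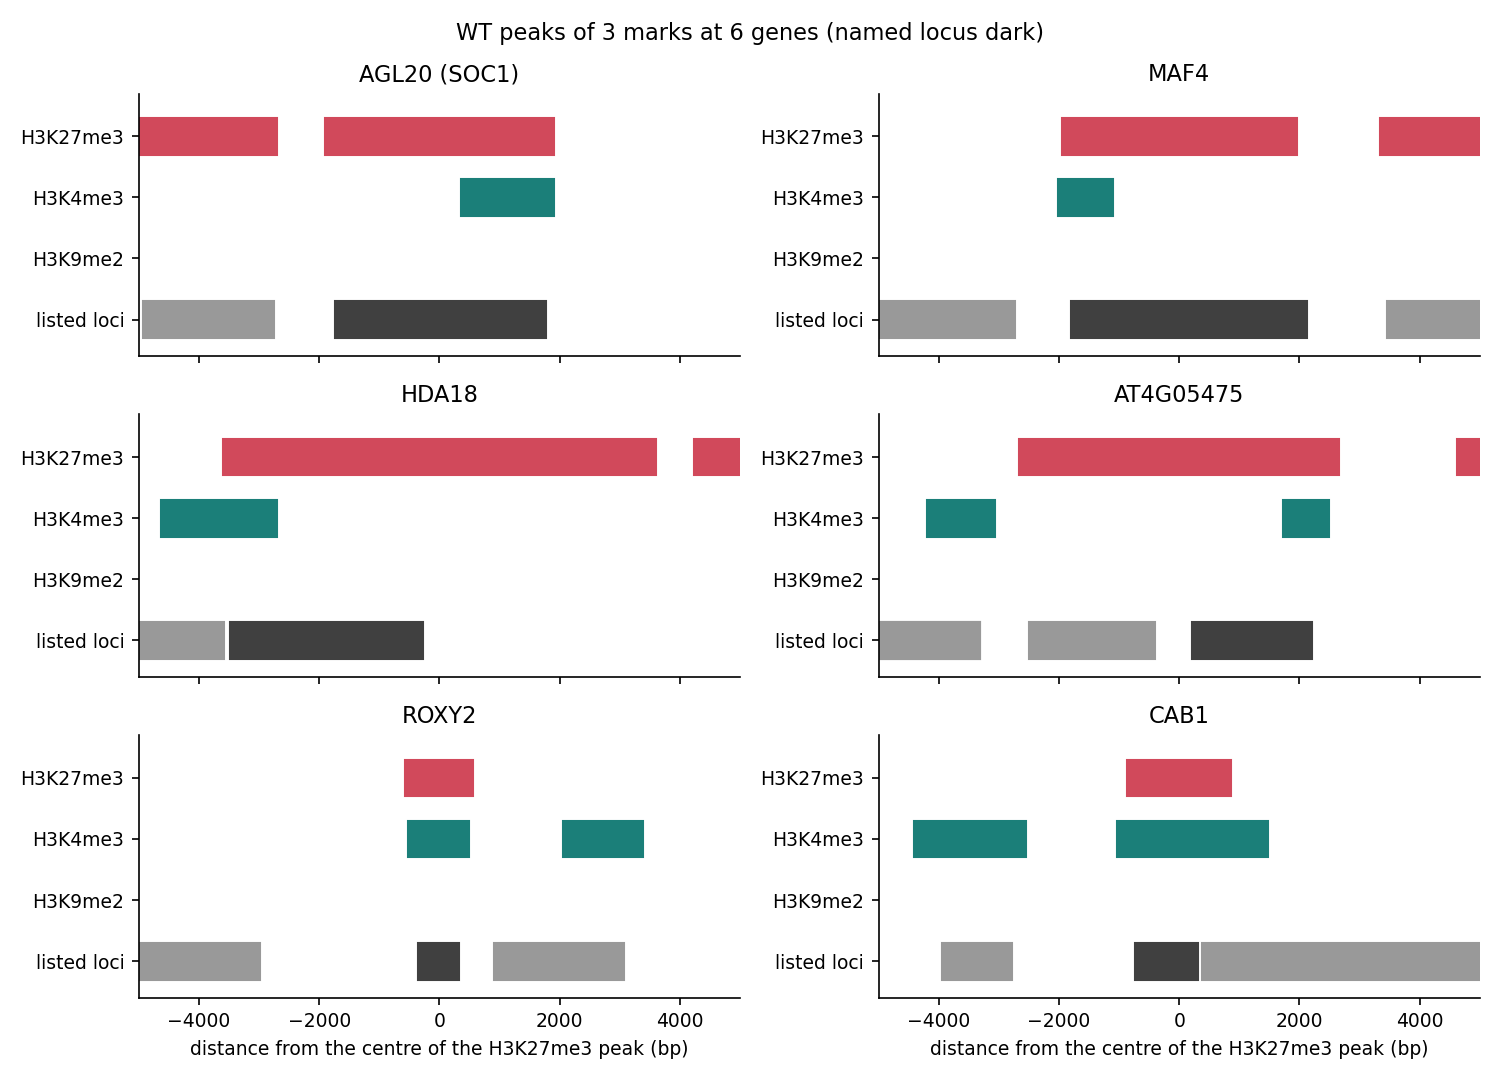
WT peaks of H3K27me3, H3K4me3 and H3K9me2 and listed loci (the named one dark) within 5000 bp of the centre of a shared peak, for 6 genes picked after their values were seen. At SOC1, MAF4 and HDA18 the H3K4me3 peak lies at one end of the H3K27me3 peak, at AT4G05475 and ROXY2 within it, and at CAB1 it covers the H3K27me3 peak.

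Shared peaks also touched some of the most abundant transcripts of the table. CAB1 (AT1G29930), a chlorophyll-binding protein of the photosystem II antenna, had 10552 FPKM in pold2 and 13034 FPKM in WT. Its H3K27me3 peak of 1728 bp had a score of 96.7 and lay inside an H3K4me3 peak of score 3132. RBCS1B (AT5G38430), a small subunit of Rubisco, had 1667 FPKM in pold2 and 1405 FPKM in WT, under an H3K27me3 peak of score 62.8 inside an H3K4me3 peak of score 2879. Both belong to families of near-identical genes, so the split of reads among copies is uncertain.

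ESP (AT1G54040), the epithiospecifier of glucosinolate breakdown, had 2959 FPKM in pold2 and 2567 FPKM in WT, with an H3K27me3 score of 986 and an H3K4me3 score of 112. PYK10 (AT3G09260), a beta-glucosidase of root ER bodies, had 1853 FPKM in pold2 and 1578 FPKM in WT, with scores of 352 and 98.6 for the same marks. The glycine-rich protein genes GRP-3 (AT2G05520) and GRP23 (AT2G32690) had 2946 and 2442 FPKM in pold2 and 2765 and 2796 FPKM in WT. PSBTN (AT3G21055), a photosystem II subunit, had 2056 FPKM in pold2 and 2440 FPKM in WT, under an H3K27me3 peak of score 87.1 with an H3K4me3 partner of score 3100. AT4G23670 had 2040 FPKM in pold2 and 1577 FPKM in WT. Of these 8 genes it alone was called, 1.29-fold higher in the authors' deposited table (q = 0.00718). At a mean of 50 FPKM or more, 19.1% of all listed genes and 27.6% of genes of shared peaks were called in either direction. Scores of different marks are from separate lists and are not on a common scale.

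Gene lists of known processes, chosen with earlier results of these data known, were then read for members under shared peaks. For all these lists, 15.2% of genes of shared peaks were called higher and 8.97% lower. Over all listed genes it was 5.97% and 6.47%. Of 12 listed flowering repressors, 5 lay under a shared peak, and the authors' deposited table calls 0 of them higher and 3 lower. TEM2 (RAV2, AT1G68840), a repressor of FT, had 86.1 FPKM in pold2 and 126 FPKM in WT, 1.46-fold lower in the authors' deposited table (q = 0.00103). SNZ (AT2G39250), an AP2-like repressor, had 18.0 FPKM in pold2 and 30.0 FPKM in WT, 1.66-fold lower in the authors' deposited table. MAF4 was the third. FLM (MAF1, AT1G77080) had 4.33 FPKM in pold2 and 5.67 FPKM in WT, and TEM1 (AT1G25560) had 43.4 FPKM in pold2 and 47.3 FPKM in WT; neither was called. The peak over FLM had a score of 1450 and lay around a weak H3K4me3 peak of score 126, while that over TEM1 scored 113 and lay inside an H3K4me3 peak of score 3100. The median log2 ratio of the 5 was -0.55, and of the whole list of 12, 8 were called lower.

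Of 5 listed flowering activators, SOC1 was the 1 under a shared peak, and 3 of the 5 were called higher. Of 12 listed floral organ identity genes, 11 of them under H3K27me3, SEP4 (AT2G03710) was the 1 under a shared peak, and 7 of the 12 were called higher. It had 16.9 FPKM in pold2 and 9.78 FPKM in WT, 1.73-fold higher in the authors' deposited table (q = 0.00103), with 1165 of 2483 bp of its peak under H3K4me3. Of 7 listed seed maturation genes, all under H3K27me3, 2 lay under a shared peak and both were called higher. So were 3 of the 5 under other H3K27me3 peaks. The 2 were the oil body protein genes OLEO4 (AT3G27660), with 7.10 FPKM in pold2 and 3.28 FPKM in WT, and OLEO1, whose stretch of both marks lay outside its locus. OLEO4 rose by 2.16-fold (q = 0.00103) and OLEO1 by 2.69-fold (q = 0.0243) in the authors' deposited table.

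Of 8 listed genes of auxin synthesis and transport, 4 lay under a shared peak and 0 were called, and of all 8, 0 were called higher and 1 lower. The auxin exporter PIN2 (EIR1, AT5G57090) had 12.4 FPKM in pold2 and 11.8 FPKM in WT under a peak of score 1820. TAA1 (AT1G70560), of auxin synthesis, had 9.38 FPKM in pold2 and 9.80 FPKM in WT, and YUC6 (AT5G25620) had 2.80 FPKM in pold2 and 2.96 FPKM in WT. At an unadjusted p under 0.05 in the authors' deposited table, 0 of these 4 passed. Over all listed genes 4764 of 19858 passed, and of the genes of shared peaks 356 of 881. A set of 4 genes is too small to set apart from those shares.

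Single members of other lists lay under a shared peak. WRKY70 (AT3G56400), a regulator of salicylate defence, was the 1 of 9 listed defence genes, and 5 of the 9 were called higher. It had 30.9 FPKM in pold2 and 22.1 FPKM in WT, 1.40-fold higher in the authors' deposited table (q = 0.00103). The meristem gene KNAT6 (AT1G23380), 1 of 6, had 7.19 FPKM in pold2 and 6.84 FPKM in WT. EMF1 (AT5G11530), a Polycomb group gene and 1 of 12, had 13.3 FPKM in pold2 and 11.9 FPKM in WT. The cold-induced genes COR47 (AT1G20440) and RD29A (LTI78, AT5G52310), 2 of 4, had 321 and 10.2 FPKM in pold2 and 315 and 11.6 FPKM in WT. The ubiquitin gene UBQ10 (AT4G05320), 1 of 10 constitutive genes, had 311 FPKM in pold2 and 280 FPKM in WT. None of these 5 was called. No shared peak touched the 5 listed H3K27 demethylase genes, the 10 of H3K4 methylation, the 5 of H3K4 demethylation, the 3 of the vernalization response or the 13 of the DNA damage response.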

How the data were processed

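RNA and chromatin immunoprecipitation data of seedlings were used as deposited. The submitters' processing notes name Bowtie 0.12.9, TopHat2 2.1.1 and Cuffdiff 2.1.1, with no role or order, and the TAIR10 build. Per the file headers, the deposited FPKM is a single pooled value for each genotype. The log2 ratios, p-values and q-values are those of the authors' deposited table, pold2 over WT. Read depth is unknown. Peak starts, ends and scores are the authors', per the deposited files, whose peak names begin with MACS; the caller's version, the control and the scale of the score were not given in the sources used here.

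Shared bases were summed per H3K27me3 peak with Python 3.11.15 and pandas 2.3.3, and the overlap step was tested on simulated data. Locus starts were taken to count from 0, since of 19771 starts compared with a RefSeq gene table of TAIR10.1, 3538 lie 1 below it and 122 equal it, and the rest differ otherwise; coordinates are given from 1, and strand is not given. Symbols came from that table, which matched 19812 identifiers. No test across libraries was possible with pooled values. The members and the 15 gene lists (143 entries) were chosen with earlier results of these data known. Named genes are, among genes with both marks on the locus, the 8 largest called rises and 8 largest called falls whose mean reached 1 FPKM, and the 8 highest pold2 FPKM, and further list members under shared peaks. Named peaks are the 5 with most shared bases, the 5 with the highest score and 3 on each side of the threshold. The values of 1 list member are not reported here.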

Additional observations from a re-analysis of the deposited data

How the results depend on the processing

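Medians are compared with their own 95% binomial interval and counts with a factor of 1.5. Requiring 1 bp or 500 bp in place of 200 bp moved the median length of shared peaks to 1865 bp and 1687 bp. The other results stayed within those bounds under both settings. With the better-scoring 50% of each list, 102 peaks were left, with a median length of 2348 bp and a median score of 459. They touched 93 genes, with medians of 12.8 FPKM in pold2 and 11.8 FPKM in WT. Of these 93, 16 were called higher and 10 lower, beside 134 (15.2%) and 79 (8.97%) of the 881 genes at the main setting. The counts are lower in a smaller set of genes. Over all listed genes 5.97% were called higher and 6.47% lower. A mean of at least 1 FPKM gave medians of 8.78 FPKM in pold2 and 8.33 FPKM in WT. At q under 0.01, 88 of the 881 genes were higher, where 3.74% of all listed genes were. With a 2-fold minimum 27 were higher and 8 lower, where 1.2% and 0.388% of all listed genes met those rules. With pseudocount 5 the median log2 ratio was 0.028. No paired analysis was possible because the RNA table gives 1 pooled value per genotype, and leaving out a replicate was not run for the same reason. Depth is unknown, so no counting error can be given.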

Other observations

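Gene families were picked out by symbol or synonym after earlier results of these data were known, and are given as counts. Cytochrome P450 genes, which oxidise hormones and defence compounds, were often under shared peaks, at 29 of 158 listed (18.4%), where 4.44% of all listed genes were. Another 41 of the 158 (25.9%) lay under other H3K27me3 peaks. Of these 29, 9 were called higher and 0 lower in pold2 in the authors' deposited table. For this and the next families, 15.2% of all genes of shared peaks were called higher and 8.97% lower, and 5.97% and 6.47% of all listed genes. They included CYP706A1, at 32.7 FPKM in pold2 and 26.7 FPKM in WT, CYP79B2, at 18.5 FPKM in pold2 and 14.8 FPKM in WT, and CYP710A2, at 15.0 FPKM in pold2 and 9.63 FPKM in WT. Of 56 WRKY genes, 11 were under shared peaks (19.6%), 4 called higher and 0 lower. Another 16 of the 56 (28.6%) lay under other H3K27me3 peaks. WRKY57 had 12.9 FPKM in pold2 and 8.85 FPKM in WT, and WRKY48 had 2.36 FPKM in pold2 and 1.37 FPKM in WT. Of 62 homeodomain genes, 12 were under shared peaks (19.4%), 1 called higher and 3 lower, and another 16 (25.8%) were under other H3K27me3 peaks. HB25 had 16.9 FPKM in pold2 and 27.1 FPKM in WT, HAT3 14.0 FPKM in pold2 and 19.4 FPKM in WT, and the called rise was that of RPL, at 7.04 FPKM in pold2 and 5.22 FPKM in WT. Of 17 genes for CLE signalling peptides 4 were under shared peaks (23.5%), with CLE27 called lower at 3.64 FPKM in pold2 and 7.26 FPKM in WT. Another 8 of the 17 (47.1%) lay under other H3K27me3 peaks, so these shares are not particular to shared peaks. Some families had lower shares under shared peaks, such as SAUR genes at 3 of 52 (5.77%) and bZIP genes at 3 of 34 (8.82%). Of 48 genes with ribosomal protein symbols 0 were under shared peaks. Families differ in level and locus length, and their part in these shares was not tested.

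The 185 shared peaks that touched no listed gene had a median score of 338 and a median length of 1844 bp, against 248 and 1746 bp for the 814 that touched one. Their median distance to the nearest listed locus was 459 bp, and 114 lay within 1000 bp of one. Of 31 mitochondrial H3K27me3 peaks, which the rule leaves out, 9 shared at least 200 bp with H3K4me3 peaks.

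Some genes near 0 in WT had extreme ratios and no call. Only genes reaching 0.501 FPKM in pold2 or in WT are listed, so these were listed through their pold2 value. The first of them, bZIP44, also shares a merged locus with another gene. bZIP44 had 0.626 FPKM in pold2 and 0.00105 FPKM in WT (q = 0.551 in the authors' deposited table), and AT3G47030 had 1.01 FPKM in pold2 and 0.0309 FPKM in WT (q = 0.542 in the authors' deposited table).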
